A study of Mus musculus with 4 samples.

Results

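Exonic peaks away from promoters were the peaks of SHP ChIP-seq in mouse liver whose centre lay farther than 1 kb from every annotated transcription start site (TSS) and inside an annotated exon. They were picked by position alone, with the GENCODE M1 transcripts on the mm9 genome, and there were 523 of them among 4663 peaks. The vehicle list held 258 among 1508 peaks and the FGF19 list held 265 among 3155. In the study, wildtype male C57BL/6 mice aged 8 to 12 weeks were fasted for 12 h, given vehicle or 1 mg/kg of FGF19 by tail vein injection, and their livers were removed 2 h later. Chromatin precipitated with an antibody to SHP was sequenced beside an input library of the same treatment that was not precipitated. Material from 3 mice was pooled into 1 library for each treatment and kind, so there was no replicate, no spread between mice and no test between the groups. The intervals given below are Wilson 95% intervals that cover counting error only. The libraries were of similar depth, with 15473647 ChIP tags left after filtering with vehicle and 13444078 with FGF19, and with 16164473 and 17367587 input tags. In whole liver, a peak held by fewer cells and a weaker peak in each cell cannot be told apart. The label of liver could not be checked on expression in these data. None of 10 markers of Kupffer cells, 7 of endothelial cells, 6 of stellate cells, 5 of cholangiocytes and 5 of blood cells held an exonic peak, but only 0.909% (vehicle) and 0.994% (FGF19) of all protein-coding genes did, so lists of this size do not check the label.

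SHP, the product of Nr0b2, belongs to the nuclear receptors but lacks the domain with which these bind DNA. It reaches chromatin through other proteins and acts there mostly as a corepressor, best known from the feedback repression of bile acid synthesis. FGF19, whose mouse counterpart is FGF15, is a gut hormone released after a meal that acts on hepatocytes. Exons are the parts of a gene kept in the mature mRNA. In most genes the first exon lies at the promoter, the internal exons are short and lie between long introns, and the last exon is long and carries the 3' UTR.

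The lines below show the exon borders under 3 of the exonic peaks, since the way these peaks lay across whole exons is what the values further down describe. Each line holds 30 bases of mm9 read on the strand of the gene, with exon bases in capitals and intron bases in lower case. The first pair is from Alb, which encodes serum albumin, the next from Trf, which encodes transferrin, and the last from Apoh, which encodes apolipoprotein H.
Alb exon 8, start of the exon, chr5:90897492-90897521, plus strand: ttttcattctcacagGCGGAACTTGCCAAG
Alb exon 8, end of the exon, chr5:90897707-90897736, plus strand: TGTCTTCCTGGGCACgtgagtagatgcctt
Trf exon 16, start of the exon, chr9:103112994-103113023, minus strand: ctgctcatttgacagACTTTATTTGGGGGA
Trf exon 16, end of the exon, chr9:103112810-103112839, minus strand: AGTGCTCAACCTCACgtaagtagaatgaac
Apoh exon 5, start of the exon, chr11:108268590-108268619, plus strand: gatctctctttgcagGCATCACCTGCCCGC
Apoh exon 5, end of the exon, chr11:108268779-108268808, plus strand: TGCCAGAATGCCTGGgtaagtggctaagac

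The next lines show the 30 bases around the summit of 5 exonic peaks, all of them coding and so all in capitals. Apoe held the highest fold enrichment of either list, and its summits with vehicle and with FGF19 lay at different places in the same exon. Serpina3k and Hp stand for secreted proteins with a summit deep inside a long exon. Cyp8b1 is a gene of bile acid synthesis that has a single exon.
Apoe exon 4, vehicle summit, chr7:20282087-20282116, minus strand: TGTGAGTGCCATCCGTGAGCGCCTGGGGCC
Apoe exon 4, FGF19 summit, chr7:20281920-20281949, minus strand: TAGAGGAGGTGCGTGAGCACATGGAGGAGG
Serpina3k exon 2, FGF19 summit, chr12:105579017-105579046, plus strand: AGAAGGCCTCAAGTTCAATCTCACAGAGAC
Hp exon 5, vehicle summit, chr8:112099309-112099338, minus strand: TACGGTGACGCCGGCAGTGCCTTTGCCATT
Cyp8b1 exon 1, vehicle summit, chr9:121824112-121824141, minus strand: GAAAGTGGACTTCTACAAGTCGGGCAAGAA

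Exonic peaks stood higher over their local background than the other peaks of the same list. The fold enrichment, which is the height of the ChIP pileup at the summit over the local background taken from the input, had a median of 5.34 with vehicle and 5.14 with FGF19. The middle range, between the quartiles, was 4.31 to 7.36 with vehicle and 4.25 to 6.84 with FGF19. Promoter peaks, those within 1 kb of a TSS, had a median of 3.97 in both lists, and intronic peaks had 4.03 and 4.21. The pileup itself, in ChIP fragments over the summit, differed less between exonic and promoter peaks. Its median was 26 and 25 at exonic peaks and 24 in both lists at promoter peaks. Intronic peaks had a lower median pileup, of 19 and 18. The local background was lower at exonic than at promoter peaks, with a median of 3.83 and 3.87 fragments against 5.53 and 5.42. Intronic peaks had a background close to that of exonic ones, at 3.96 and 3.63, so a low background was not particular to exons. The difference in fold enrichment between exonic and promoter peaks thus went with a lower background more than with a higher pileup, and how far the background set it was not tested.

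**Figure D1:**
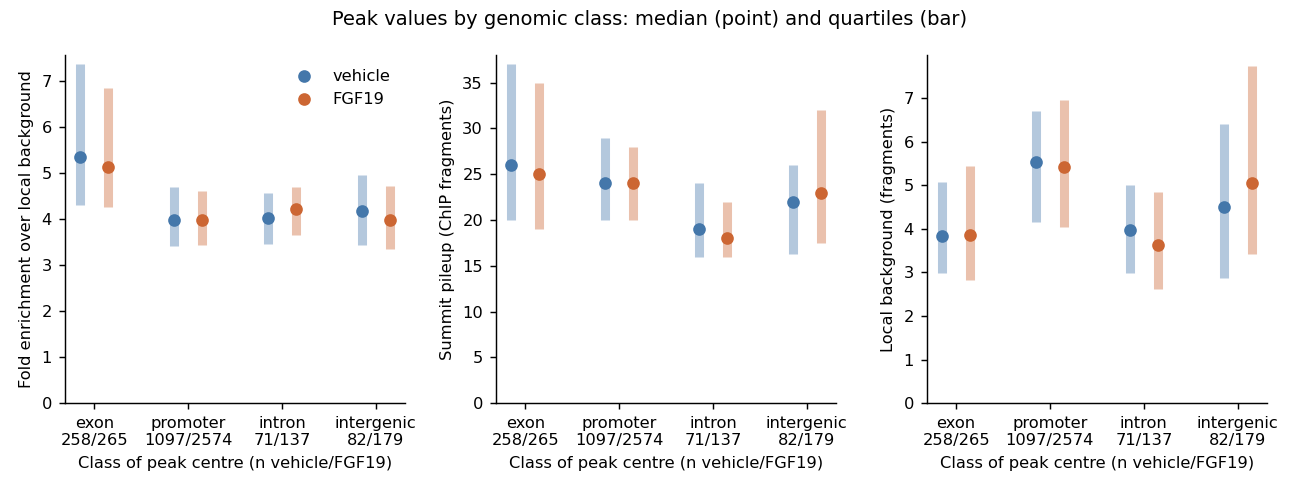
Fold enrichment, summit pileup in ChIP fragments and local background in fragments, on the vertical axes, for exonic, promoter, intronic and intergenic peaks of the vehicle list (blue) and the FGF19 list (orange). Points are medians and bars run from the lower to the upper quartile. Exonic peaks have the highest median fold enrichment, 5.34 and 5.14, with a pileup close to that of promoter peaks and a lower background.

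The strongest peaks by fold enrichment were mostly exonic. Of the 10 peaks with the highest fold enrichment, 6 were exonic with vehicle and 7 with FGF19. Of the first 100, 61 were exonic in each list, whereas exonic peaks made up 17.1% of all vehicle peaks (15.3 to 19.1) and 8.40% of all FGF19 peaks (7.48 to 9.42). A fold enrichment of at least 10 was reached by 47 vehicle peaks, 34 of them exonic, and by 35 FGF19 peaks, 23 of them exonic. Ranked by pileup instead, 3 of the first 10 vehicle peaks and 0 of the first 10 FGF19 peaks were exonic. Of the first 100 by pileup, 35 were exonic with vehicle and 44 with FGF19. The exonic peaks just beyond the limit of 1 kb were Hpd at 1001.5 bp with a fold enrichment of 3.56 with vehicle and Stk35, which encodes a kinase, at 1005 bp with 4.77 with FGF19. Those just within it, which are no members, were Osgin1 at 950.5 bp with 3.81 and Aldh1l1 at 994.5 bp with 4.36.

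Inside genes, peaks away from a TSS lay mostly on exons. With vehicle, 258 of 329 such peaks were exonic, or 78.4% (73.7 to 82.5), and with FGF19 265 of 402 were, or 65.9% (61.2 to 70.4). Exons made up 6.47% of the bases of annotated genes farther than 1 kb from a TSS. The 71 vehicle and 137 FGF19 peaks that remained had their centre in an intron.

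By exon rank, last exons held most of the exonic peaks, 166 of 258 with vehicle (64.3%, 58.3 to 69.9) and 179 of 265 with FGF19 (67.5%, 61.7 to 72.9). Internal exons held 89 (34.5%) and 79 (29.8%). Last exons made up 50.9% of the exon bases beyond 1 kb in the same transcripts with vehicle and 55.7% with FGF19, and internal exons made up 48.2% and 41.8%. Peaks on internal exons nevertheless had the higher fold enrichment, with a median of 6.17 and 5.64 against 5.09 and 4.97 on last exons. By exon part, 135 vehicle peaks (52.3%) and 141 FGF19 peaks (53.2%) were centred in coding sequence, and 118 (45.7%) and 120 (45.3%) in a 3' UTR. Coding sequence made up 59.0% and 56.3% of the exon bases of these transcripts and 3' UTRs 39.1% and 42.1%, so the intervals of the vehicle list lay just beyond these shares and those of the FGF19 list included them. Along the spliced transcript, from its 5' end, the centres had a median position of 66.0% and 64.3%.

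**Figure D2:**
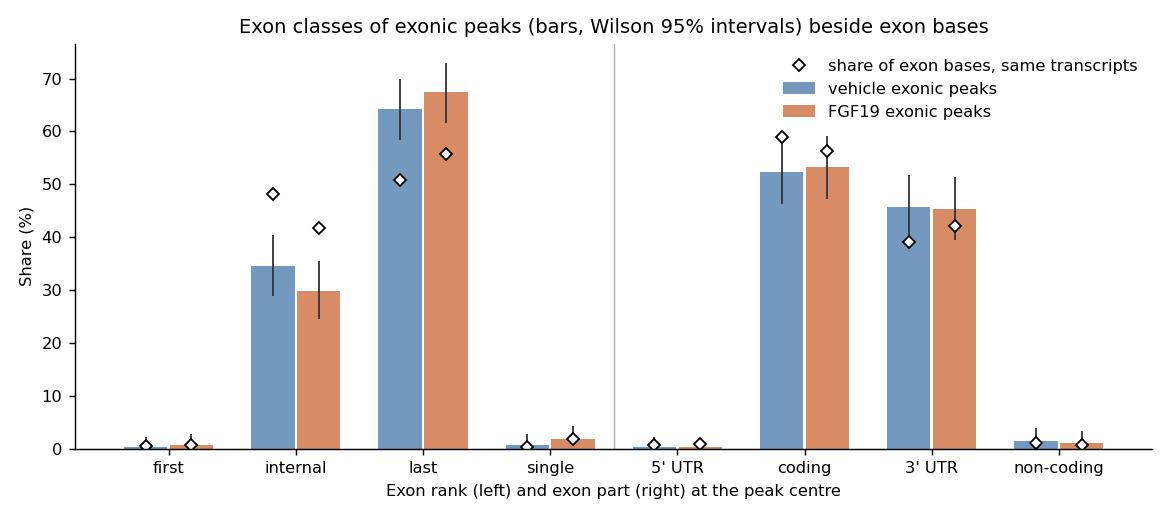
Share of exonic peaks, in percent, by the rank of the exon under the peak centre (left) and by the part of the exon (right), for the vehicle list (blue bars) and the FGF19 list (orange bars) with Wilson 95% intervals. Diamonds give the share of the exon bases beyond 1 kb from a TSS in the same transcripts. Last exons hold 64.3% and 67.5% of the peaks against 50.9% and 55.7% of the bases.

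First, single, 5' UTR and non-coding exons held few peaks, and the genes in them are named here because the classes were small, after their values were seen. The vehicle list had 1 peak on a first exon, in Adcy5, which encodes an adenylyl cyclase, with a fold enrichment of 3.31. The FGF19 list had 2, in Lemd3, which encodes an inner nuclear membrane protein, with 4.55, and in Hhex, which encodes a homeobox factor of liver development, with 4.31. The Hhex peak was also the 1 peak of the FGF19 list in a 5' UTR, and Kank3 held the 1 of the vehicle list. Genes of a single exon were 1700007I08Rik and Cyp8b1 with vehicle, and 6430527G18Rik, Sft2d3, Cebpa, Sephs2 and Cyp8b1 with FGF19. Cebpa, which encodes the hepatocyte factor C/EBP alpha, was at 3.01. Non-coding exons held 4 vehicle peaks, in Gm13412, Gm14486, Gm16191 and Sfi1, and 3 FGF19 peaks, in A430078I02Rik, Gm14486 and Tcfe3.

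Peaks on internal exons ran a short way into the introns on both sides. The summit lay in the exon of the centre for 87 of 89 internal peaks with vehicle and for 75 of 79 with FGF19. The whole exon lay inside the peak for 62 and 55 of them. Peaks that covered a whole internal exon and no other exon numbered 58 with vehicle and 50 with FGF19. These peaks ran past the start of the exon by a median of 92.5 bp with vehicle and 122.5 bp with FGF19, and past its end by 79.5 bp and 116.5 bp. They had a median length of 358 bp and 413 bp, over exons of 184.5 bp and 183 bp. The members were chosen with their centre in the exon, which itself limits how far an edge can lie beyond it, so these distances are a description. At Alb exon 8, whose borders are printed above and which is 215 bp long, the vehicle peak ran 131 bp into the intron before the exon and 116 bp into the intron after it. With FGF19 the same peak ran 127 bp and 135 bp. At Apoh exon 5 the FGF19 peak ran 139 bp before and 84 bp after the exon.

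The internal exons with a peak were longer than those without one. In the same transcripts, internal exons beyond 1 kb from a TSS had a median length of 203 bp where they held a vehicle peak and 129 bp where they did not. With FGF19 these lengths were 212 bp and 126 bp. Longer exons give more bases to hold a centre, and the part of length was not tested further. Peaks on last exons lay wholly inside the exon in 119 of 166 cases with vehicle and in 126 of 179 with FGF19. The lengths of last exons with and without a peak were not compared. More than 1 exon was touched by 5 vehicle and 9 FGF19 peaks.

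The sequence under exonic peaks was unlike that under promoter peaks. In the 100 bases on each side of the summit, the median GC content was 51.5% with vehicle and 52.2% with FGF19, against 66.2% and 69.7% at promoter peaks. The ratio of observed to expected CpG was 0.303 and 0.307 against 0.866 and 0.898. Intronic peaks were close to exonic ones, with a CpG ratio of 0.288 and 0.346.

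Of 3 motifs common at promoter peaks, a pair was rare at exonic peaks and the other less so. The motifs were searched on both strands in the same windows, and none of them contains another. CCCCGCCCC, a GC box of the kind SP1 binds, was in 1 vehicle (0.388%) and 3 FGF19 (1.13%) exonic windows, against 13.1% and 14.8% of all peaks. AANATGGC, a core bound by YY1, was in 4 (1.55%) and 7 (2.64%), against 9.75% and 7.54% of all peaks. ATTGGC, the CCAAT box read on the other strand, was in 21 (8.14%, 5.39 to 12.1) and 15 (5.66%, 3.46 to 9.13), against 11.2% and 11.1% of all peaks, so the vehicle interval included the share of all peaks and the FGF19 interval lay below it. AGGTCA, the hexamer that many nuclear receptors bind, was in 34 (13.2%, 9.59 to 17.9) and 33 (12.5%, 9.01 to 17.0) exonic windows, against 9.08% and 7.13% of all peaks. Intronic peaks held it in 18.3% and 19.0%, so the hexamer was not particular to exons. A match is a run of letters and not a shown site. Copies elsewhere in the genome were rare, since in 7 exonic peaks of each list (2.71% and 2.64%) 50% or more of the 31-base words around the summit occurred more than once.

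Exonic peaks fell on few genes. They named 185 genes with vehicle and 201 with FGF19, of which 128 were in both lists, or 69.2% of the vehicle genes and 63.7% of the FGF19 genes. Of the 20017 protein-coding genes with exon bases beyond 1 kb from a TSS, 182 held an exonic vehicle peak and 199 an exonic FGF19 peak, which is 0.909% and 0.994%. Most genes held 1 peak, 145 with vehicle and 165 with FGF19. At the other end, 14 vehicle genes and 13 FGF19 genes held 3 or more, and these carried 61 and 54 of the peaks. Trf held the most in both lists, with 8 peaks each, and Alb held 8 with vehicle and 6 with FGF19. Among genes with an exonic peak, 27 with vehicle (14.8%) and 48 with FGF19 (24.1%) also had a peak within 1 kb of a TSS. Over all protein-coding genes that share was 5.54% and 12.5%, so both figures were above the background of their list, while most genes with an exonic peak had no promoter peak in the same list. Peaks on later exons near an internal TSS, as in Trf and Apob, also count here as within 1 kb of a TSS. How much they add to these shares was not tested.

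Genes of plasma carrier proteins, which hepatocytes secrete into blood, held more exonic peaks than any other list examined. With FGF19 the list of coagulation and complement came close, at 22 peaks. The lists were chosen with earlier results of these data known, so this order is a description. Of the 14 genes listed, 11 held an exonic peak with vehicle and 8 with FGF19, on 32 and 24 peaks, and 8 did in both. Alb, the gene of serum albumin, had vehicle peaks on exons 3, 4, 5, 7, 8, 9, 13 and 15 of 15. The highest was on exon 8 (chr5:90897376-90897837), with a fold enrichment of 22.6 and a pileup of 136. The same exon with FGF19 was at 20.6 and 147. Exon 4 was at 17.1 and 17.2. The 6 FGF19 peaks lay on exons that also had a vehicle peak. A further FGF19 peak, at 4.69, had its centre in an intron and overlapped the vehicle peak on exon 15. Of the Alb exons without a vehicle peak centre, exons 11 and 12 lay under a broad peak centred in the intron between them, which was no member, with a fold enrichment of 25.9 with vehicle and 23.0 with FGF19. Exon 10 lay under a weaker vehicle peak, at 3.39, centred in the intron before it. Alb had no peak within 1 kb of a TSS in either list.

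Trf, the gene of the iron carrier transferrin, had peaks on exons 4, 5, 9, 12, 13, 15 and 16 in both lists, counted on its longest model of 23 exons, and on the last exon of its 17-exon model. The vehicle values ran from 6.40 on exon 5 to 15.3 on exon 16, and the FGF19 values from 5.32 on exon 5 to 10.7 on exon 15. The same exons were thus covered in both lists. On 7 of these 8 exons the fold enrichment was lower with FGF19 than with vehicle, while the depth-scaled pileup, which is the pileup for every 1000000 ChIP tags, was higher with FGF19 on all 8. Trf also had 3 peaks in each list within 1 kb of a TSS of one of its transcripts, which were no members. These covered exons 8, 7 and 2 of the 23-exon model and not its first exon. They were at 14.1, 12.9 and 6.24 with vehicle and, at the same places, at 10.3, 5.71 and 9.52 with FGF19. Ahsg, which encodes fetuin-A, was covered on its last exon at 19.1 with vehicle and 17.1 with FGF19 and on exon 4 at 4.04 and 6.06.

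Ttr, which encodes the thyroid hormone carrier transthyretin, was covered on exon 4 at 11.8 with vehicle and 18.8 with FGF19 and on exon 3 at 6.17 and 4.59. Its pileup on exon 4 was 84 and 74, so the higher fold enrichment with FGF19 came with a lower background of 2.99 against 6.22 fragments. Rbp4, the carrier of retinol, had peaks on exons 5 and 6 in both lists. Gc, the vitamin D carrier, was covered on exons 4 and 8, at 6.62 and 4.74 with vehicle and at 7.20 and 7.01 with FGF19. Hp, the hemoglobin scavenger haptoglobin, was covered on its last exon at 14.1 and 5.96. Hpx, which encodes the heme carrier hemopexin, held 3 exonic peaks with vehicle, on exons 5, 6 and 9 of 10 at 6.96, 10.0 and 8.16, and 0 with FGF19. The FGF19 list held 4 peaks in the same gene with their centre in an intron. Those at 6.69 and 5.84 overlapped the vehicle peaks on exons 6 and 9, with summits 19 bp and 4 bp apart. Ambp held peaks in both lists, while Cp and Fetub held 1 peak each with vehicle alone, at 3.93 and 3.94.

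**Figure D3:**
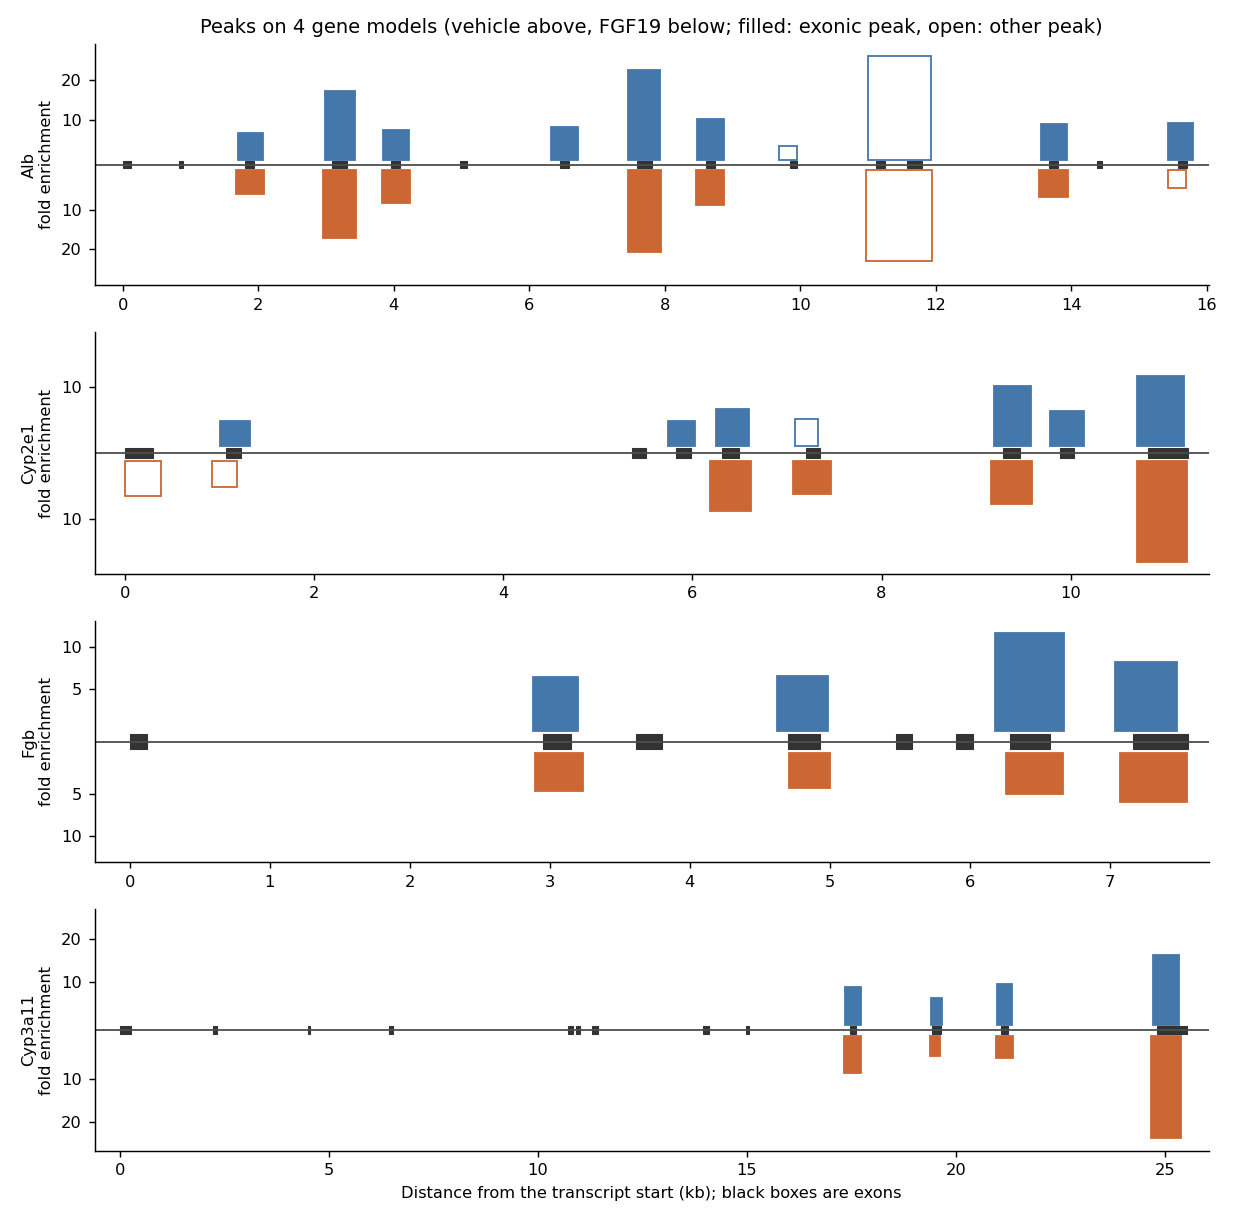
Exonic peaks on the gene models of Alb, Cyp2e1, Fgb and Cyp3a11, with distance from the transcript start in kb on the horizontal axis and fold enrichment as the height of each box. Vehicle peaks are drawn above and FGF19 peaks below the exons (black), filled where the centre is exonic and away from a TSS and open otherwise. The filled boxes sit on exons by the choice of members, with Alb exon 8 at 22.6 and 20.6 and with Fgb lower with FGF19 on each of its 4 covered exons.

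Apolipoprotein genes, whose products carry lipid in blood, held an exonic peak in most cases. Of the 12 genes that could hold an exonic peak, 8 did with vehicle and 9 with FGF19. Apoe, whose protein clears remnant particles, had the highest fold enrichment in both lists, on its last exon (chr7:20281589-20282567 with vehicle). It was at 28.1 with vehicle on a pileup of 200 and at 36.6 with FGF19 on a pileup of 182. Scaled to depth the pileup was 12.9 and 13.5, and the background was 6.15 fragments with vehicle and 4.00 with FGF19. Apoa1, the main protein of HDL, was covered on its last exon at 9.57 and 15.1 with a pileup of 146 and 154. Apoa2, another HDL protein, went the other way, at 14.7 with vehicle and 7.37 with FGF19.

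Apob, which forms the shell of VLDL and LDL, held several weaker peaks on its 2 longest exons. They lay on exon 26, which is 7467 bp long, and on exon 29, which is 1821 bp long, and the highest was on exon 29 at 6.67 with vehicle and 7.07 with FGF19. None of its other exons beyond 1 kb from a TSS, which were 86 to 374 bp long, held a peak centre. Apoh was covered on exons 5 and 6 in both lists and on exon 7 with FGF19, with exon 5 at 10.3 and 10.8. Apoc3, an inhibitor of lipoprotein lipase, was covered on its last exon at 7.30 and 8.36, Apoa5 at 5.56 and 5.51 and Apof at 4.05 and 5.31. Apoc1 held a peak with FGF19 alone, at 6.07.

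Genes of coagulation and complement held exonic peaks in 12 of 39 cases with vehicle and 11 with FGF19, and 11 of these were shared. The 3 fibrinogen genes, whose products form the clot, were all covered in both lists. Fga exon 5 (chr3:82834725-82836071 with vehicle) was at 24.1 with vehicle and 7.77 with FGF19. Fgb was covered on exons 2, 4, 7 and 8 in both lists, between 6.39 and 11.7 (vehicle) and between 4.29 and 5.91 (FGF19). Fgg exon 8 was at 10.5 and 4.90. Each of these fibrinogen exons was lower with FGF19 in fold enrichment. The 3 genes lie close together on chr3. At each of these exons the background was higher with FGF19, for example 3.11 against 11.6 fragments at Fga exon 5. The pileup was 98 and 97 at Fga exon 5 and 57 in both lists at Fgg exon 8, and scaled to depth it was lower with FGF19 at Fgb exon 7 alone. Prothrombin, encoded by F2, was covered on exon 7 at 6.47 and 5.54, and plasminogen, encoded by Plg, on its last exon at 7.87 and 7.22. C3, the central protein of complement, held 2 vehicle and 6 FGF19 peaks spread over its 41 exons, none above 6.06. No exon held a peak centre in both lists, but the vehicle peak on exon 21 and the FGF19 peak on exon 20 overlapped, with summits 2 bp apart, and the FGF19 peak on exon 13 overlapped a vehicle peak centred in an intron, with summits 18 bp apart.

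Serpins, the family of protease inhibitors that includes antithrombin and antitrypsin, held exonic peaks in 8 of 60 genes with vehicle and 7 with FGF19. Serpina3k was covered on exons 2, 3 and 5 in both lists, with exon 2 at 15.5 and 21.8 on a pileup of 100 and 122. Serpina1b, a gene of alpha-1 antitrypsin, was covered on its last exon at 16.5 and 20.9. Serpinc1, which encodes antithrombin, was covered on exons 3, 4 and 6, with values of 6.41 to 7.75 for vehicle and of 5.13 to 6.35 for FGF19. Several serpins have close copies. Of the 31-base words within 50 bp of the summit, 28.2% occurred elsewhere in the genome at Serpina1b exon 5 and 23.9% at Serpina3k exon 2 in both lists, so part of those tags could belong to a related gene.

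Cytochrome P450 genes held exonic peaks in 9 of 90 cases with vehicle and 7 with FGF19, all 7 shared. Cyp2c29, an epoxygenase, was the second strongest with vehicle, at 26.7 on its last exon, and was at 24.2 there with FGF19. It also held vehicle peaks on exons 5, 7 and 8 and no other FGF19 peak with its centre in an exon, while an FGF19 peak centred in an intron, at 4.74, ran over part of exon 3. Cyp3a11, the main drug-metabolising CYP3A enzyme, was covered on its last 4 exons in both lists and on none of its earlier ones, with the 3' UTR at 16.2 and 23.9. On its exon 11, 52.1% of the words around the summit were repeated in both lists. Cyp2e1, which oxidises ethanol, held 6 vehicle and 4 FGF19 peaks, with the last exon at 11.9 and 17.3 on a pileup of 91 and 86. The vehicle peak on exon 2 overlapped an FGF19 peak at 4.55 that lay within 1 kb of a TSS. The FGF19 peak on exon 6 overlapped a vehicle peak centred in an intron.

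Among genes of bile acid synthesis and transport, 3 of 18 held an exonic peak with vehicle and 4 with FGF19. Cyp8b1, the sterol 12-alpha-hydroxylase that sets the balance of bile acids, was covered in its only exon (chr9:121823617-121824706 with vehicle) at 2.99 with vehicle and 6.84 with FGF19. The pileup there was 22 and 27, and the background 6.70 and 3.10 fragments. Cyp8b1 also had a promoter peak, at 4.47 and 3.76. Cyp7b1, of the alternative pathway, was covered on exon 6 with vehicle, at 5.76, and on exon 3 with FGF19, at 5.28, so the lists did not share a position. Slco1b2, a bile acid uptake transporter, was covered in its 3' UTR at 3.56 and 5.20, and Hsd3b7 held a peak with FGF19 alone, at 7.31 in its 3' UTR. No exonic peak lay in Cyp7a1, Cyp27a1, Abcb11 or Nr0b2 itself.

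Genes of intermediary metabolism also held exonic peaks. Of 37 genes of amino acid breakdown and the urea cycle, 8 held a vehicle peak and 9 an FGF19 peak, and 7 held both. Mat1a, which makes S-adenosylmethionine, was at 10.3 with vehicle and 4.27 with FGF19 in its 3' UTR. Pck1, the rate-setting enzyme of gluconeogenesis, was covered on exons 4, 5, 6, 7 and 10 with vehicle and on exons 3, 7 and 10 with FGF19, with the last exon at 10.6 and 9.61. A further pair of FGF19 peaks, at 4.25 and 4.27, had their centre in an intron and ran over exon 5 and parts of exons 4 and 6. H6pd, a hexose-6-phosphate dehydrogenase of the endoplasmic reticulum, held 3 peaks in each list, all on its last exon of 3447 bp. Of 14 genes of glucose and glycogen metabolism, 4 held an exonic peak in each list, and of 23 genes of fatty acid, ketone and sterol metabolism, 7 did with vehicle and 4 with FGF19.

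Car3, which encodes a carbonic anhydrase, was the second strongest exonic peak with FGF19, at 26.8 in its 3' UTR, and was at 14.3 there with vehicle. Its pileup was 76 with FGF19 and 82 with vehicle, and its background 1.87 and 4.79 fragments. The value of 1.87 was the lowest background in the FGF19 list. Antioxidant and metal-binding genes held exonic peaks in 7 of 10 cases with vehicle and 5 with FGF19, among them Cat, which encodes catalase, at 14.8 and 13.3. Conjugation enzymes held them in 4 and 8 of 78. Azgp1, which encodes a secreted zinc-binding glycoprotein, was covered on exons 2, 3 and 4 with vehicle and on exons 3 and 4 with FGF19.

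In the remaining lists the counts were small. The shares over all genes, 0.909% with vehicle and 0.994% with FGF19, give few genes or none in lists of this size, so these counts are no result about the families. Of 64 genes of cytosolic ribosomal proteins and elongation factors, Eef2 alone held one in each list, while 16 of them with vehicle and 17 with FGF19 had a peak at the promoter. Of 336 zinc finger genes, 0 held an exonic peak with vehicle and 2 with FGF19, Zfp36 at 3.27 and Zfp771 at 3.34. No exonic peak lay in 15 replication-dependent histone genes or 412 olfactory receptor genes. Of the 21 major urinary protein genes, Mup3 alone held one, at 9.93 and 10.6. The lists named here together held 80 of the 185 vehicle genes (43.2%) and 77 of the 201 FGF19 genes (38.3%).

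**Figure D4:**
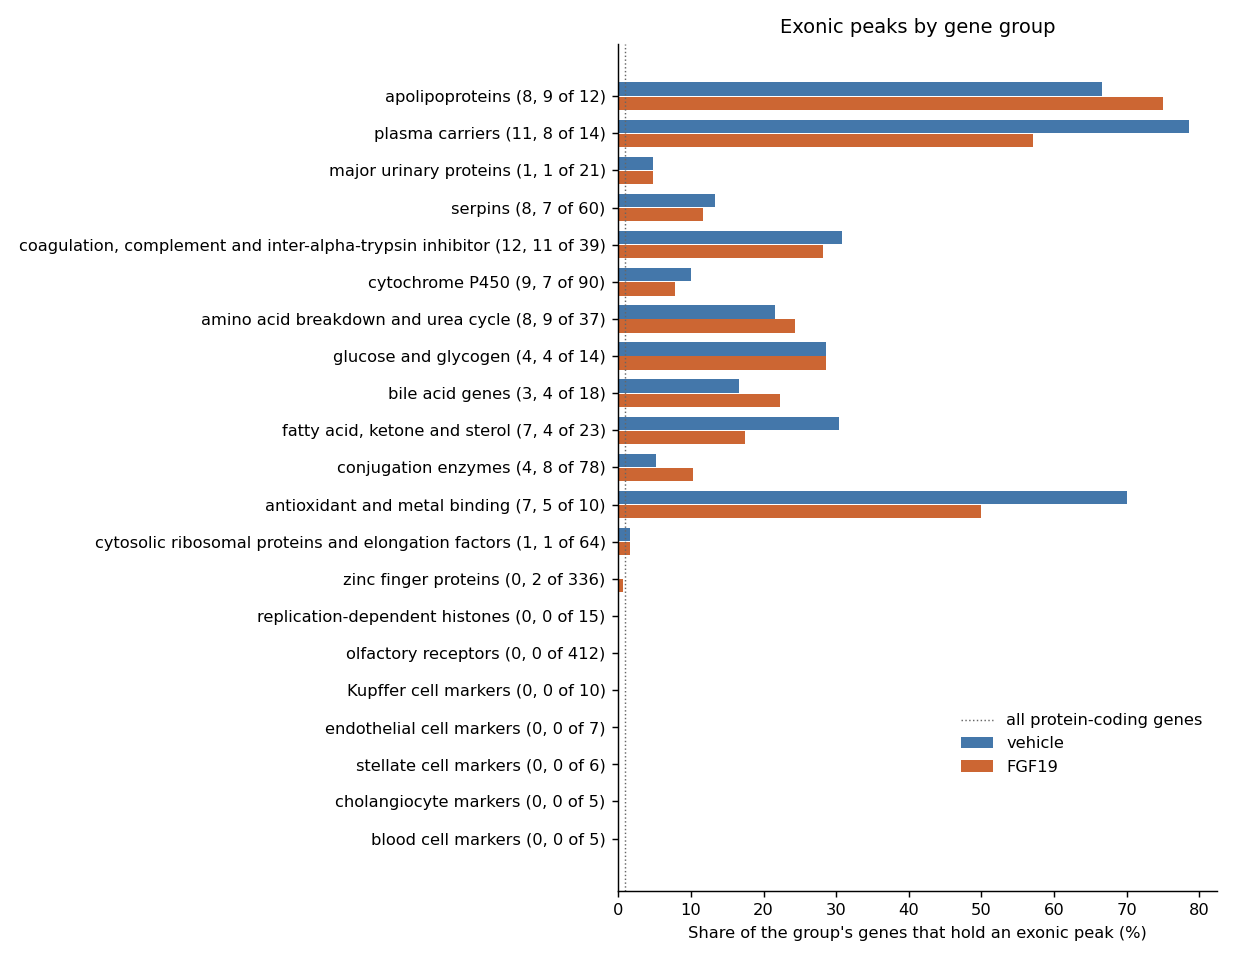
Share of the genes of each list, in percent, that held an exonic peak with vehicle (blue) or FGF19 (orange), with the number of genes in parentheses and a dotted line at the share of all protein-coding genes, 0.909% with vehicle. Plasma carriers (11 and 8 of 14) and apolipoproteins (8 and 9 of 12) are near the top, and the lists of 5 to 10 markers of other cell types are at 0.

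The vehicle and FGF19 lists shared more of their exonic peaks than of their other peaks. An overlap of at least 1 bp with a peak of the other list was found for 173 of 258 exonic vehicle peaks (67.1%, 61.1 to 72.5) and for 171 of 265 exonic FGF19 peaks (64.5%, 58.6 to 70.0). For promoter peaks these shares were 43.0% and 18.4%, and for intronic peaks 22.5% and 13.9%. Shared exonic peaks were the stronger ones, with medians of 6.22 (vehicle) and 6.06 (FGF19) in fold enrichment against 4.39 and 4.40 for those in a single list. Stronger peaks are more likely to be called again, and their part in the share of overlap was not tested. The strongest exonic peaks in a single list were on Cyp2c29 exon 7, at 8.61 with vehicle, and on exon 30 of Pzp, which encodes a plasma protease inhibitor, at 7.57 with FGF19, both picked after their values were seen.

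At the exonic regions with a peak in both lists, the fold enrichment was about the same in the 2 libraries. There were 174 such regions, and their log2 ratios, FGF19 over vehicle, had a median of -0.07 and quartiles at -0.41 and 0.30. FGF19 had the higher value in 74 of them (42.5%, 35.4 to 49.96), against 48.5% of all 678 shared regions, a share within that interval. A fold enrichment at least 1.5 times higher with FGF19 was found in 14 regions (8.05%), against 9.44% of all 678 shared regions. The opposite was found in 26 (14.9%), against 13.9% of all shared regions. Both shares were close to the background and are no result about exons.

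Pileup and background gave different pictures of the same regions. The depth-scaled pileup had a median log2 ratio of 0.16 and was higher with FGF19 in 134 regions (77.0%), against 73.3% of all shared regions. The scaling itself adds 0.203 to each of these ratios, since the FGF19 library had fewer ChIP tags. A depth-scaled pileup at least 1.5 times higher with FGF19 was found in 12 regions (6.90%, all shared regions 12.5%) and the opposite in 0 (all shared regions 1.92%). Of the 14 regions with the higher fold enrichment with FGF19, 3 also passed 1.5 times in pileup and 14 had a lower background with FGF19. Of the 26 in the other direction, 0 passed in pileup and 26 had a higher background with FGF19. The background was computed back from the pileup and the fold enrichment. Where fold enrichment passed 1.5 times and pileup did not, the direction of the background was largely fixed. These counts are thus a description. With 1 input library for each treatment, a difference in background between the treatments and one between the 2 input libraries cannot be told apart.

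The 5 regions with the lowest ratio were on Serpina3n, Fga, Mat1a, Hp and Fgb, all of which apart from Mat1a encode secreted proteins. Serpina3n, an acute-phase serpin, was at 9.02 with vehicle and 2.38 with FGF19 in its 3' UTR, a log2 ratio of -1.92, on a pileup of 26 and 29. Fga exon 5 had a log2 ratio of -1.63 and Mat1a of -1.27. Hp had a ratio of -1.24, with a pileup of 70 and 88, and Fgb exon 7 of -1.24, with a pileup of 66 and 49. The background at the Serpina3n peak was 1.99 fragments with vehicle and 11.6 with FGF19, and at Fga exon 5 it was 3.11 and 11.6. The value of 1.99 was the lowest background in the vehicle list.

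The 5 regions with the highest ratio included those on Cyp8b1, Prdx6, Rbp4 and Cyp3a25. Cyp8b1 had a log2 ratio of 1.19. Prdx6, which encodes a peroxiredoxin, was at 4.32 and 8.97, a ratio of 1.05, on a pileup of 24 and 25. Rbp4 in its 3' UTR was at 6.38 and 12.3 on a pileup of 42 and 40, and Cyp3a25 at 3.93 and 7.57 on a pileup of 18 and 24. The background was lower with FGF19 in all 4 of them. Cyp3a25 and Rgn were among the 3 regions that also passed 1.5 times in depth-scaled pileup.

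**Figure D5:**
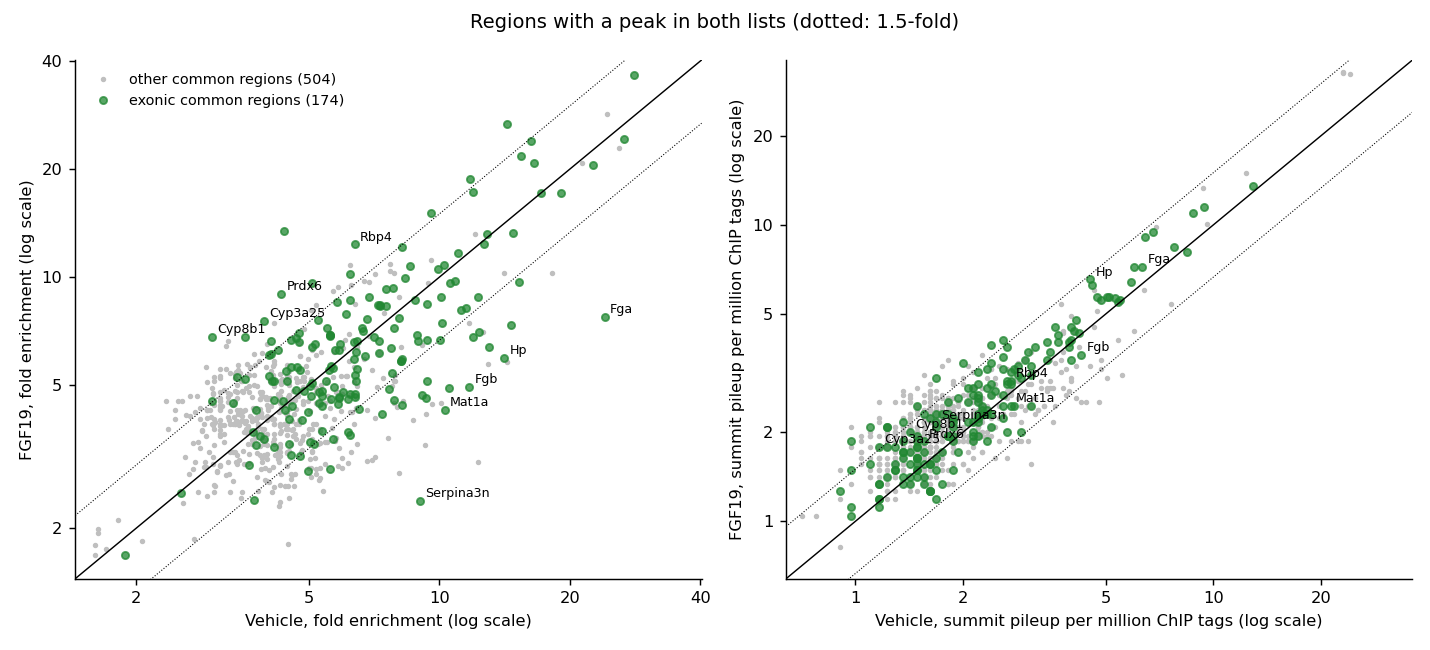
Regions with a peak in both lists, with vehicle on the horizontal and FGF19 on the vertical axis, by fold enrichment (left) and by summit pileup for every 1000000 ChIP tags (right), all axes on a log scale. Exonic regions are green, other shared regions grey, the solid line marks equal values and the dotted lines 1.5-fold. The 9 named regions lie far from the solid line by fold enrichment, from -1.92 to 1.19 as log2 ratio, and closer to it by pileup.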

How the data were processed

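Chromatin from livers of mice treated with vehicle or FGF19 was precipitated with an antibody to SHP and sequenced beside input. Per the labels and the study's methods, the authors mapped the reads to mm9 with Bowtie 1.0.0, after CASAVA 1.8.2, and called peaks with MACS2 2.0.10.20130501 at a q-value of 0.05. How reads with several matches were placed is not given in the sources used here. The deposited peak lists give a signal (the pileup of ChIP fragments at the summit), p-values and q-values as -log10, and the fold enrichment over the local background, a ratio made by the authors' caller. The 2 input libraries had no values of their own and enter through the background, which was computed back from the pileup and the fold enrichment, with the 1 fragment that the caller adds to both.

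Peaks were placed by their centre against 95495 transcripts of GENCODE M1, whose build matches the files. For each peak the protein-coding transcript with the longest exonic sequence was used, or else the longest other transcript. The scripts ran in Python 3.11.15 with numpy 2.4.6, pandas 2.3.3, scipy 1.17.1, pysam 0.24.0 and matplotlib 3.10.9. Placement and overlap were tested on simulated data with 400 positions, where 5 of 5 checks passed. With 1 library for each group, shares are given with Wilson 95% intervals and regions are counted past 1.5 times. The members and gene lists were chosen with earlier results of these data known. Named genes are those of the 10 highest peaks by fold enrichment, those with 3 or more peaks, the 5 highest and 5 lowest ratios, and the apolipoprotein, plasma carrier and bile acid lists, of which 1 gene is not reported here. The other genes named are examples from lists or small classes and were picked after their values were seen. The symbols C5 and Hmgcs1 matched no annotated gene. The alternatives were other limits of position, annotation, q-value, overlap, measure, list length and repeated sequence.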

Additional observations from a re-analysis of the deposited data

How the results depend on the processing

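The 13 results were computed under other settings, which gave 100 values, of which 89 stayed within the counting interval or the 1.5-fold range of the value in the report. The exonic share followed the limit of distance, at 14.3% with vehicle and 6.91% with FGF19 beyond 2 kb and 9.60% with FGF19 beyond 500 bp, since the limit sets how many peaks can be members. With a q-value of at most 0.001 the vehicle share was 19.2%, and the cause was not tested. The share of exonic peaks found in the other list fell to 60.1% and 58.5% where 50% of both peaks had to overlap, and to 48.4% and 46.4% where summits had to lie within 100 bp, both stricter by construction. With the FGF19 list cut to the length of the vehicle list, the share was 57.8% of the vehicle and 78.0% of the FGF19 exonic peaks. The median log2 ratio at shared exonic regions changed sign, from -0.07 by fold enrichment to 0.16 by depth-scaled pileup. Scaling to depth adds the same 0.203 to every log2 ratio of pileup, and without it the sign would not have changed. Leaving out peaks of repeated sequence, a step chosen after seeing the data, moved none of the 13 results. No paired analysis was possible because each group has 1 library. Values rest on 1 pooled library for each treatment, so they carry no error between mice, and weak peaks near the caller's threshold can be present in a single list by counting error alone.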
